A study of Mus musculus with 17 samples.

Results

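The 5 liver libraries of mice labelled Nampt OE are described here: 3 made 24 h after acetaminophen (APAP) and 2 made 24 h after saline, out of 17 libraries in the series. The libraries were chosen by their genotype and treatment labels, and the genes by a mean of at least 1 FPKM over these 5 libraries (fragments scaled to transcript length and library size). Of 46073 genes listed, 10956 reached that level, and 10867 of them, 10174 protein coding, were tested. OE APAP 200 (1) and OE APAP 200 (2) received 200 mg/kg, OE APAP 300 received 300 mg/kg, and OE saline (1) and OE saline (2) received saline. Every mouse of the series was a male C57BL/6, a common inbred strain, and the protocol gives the injection as IP or IG without saying which for these livers. OE APAP 200 (2) and OE APAP 300 were 12 weeks old, and OE APAP 200 (1) and both OE saline mice were 11 weeks old. OE APAP 200 (1), OE APAP 300 and OE saline (2) came from livers that were not perfused and were sequenced in lane L004, while OE APAP 200 (2) and OE saline (1) came from perfused livers sequenced in lane L008. Perfusion and lane can therefore not be told apart, but each lane holds APAP and saline livers of this genotype. The labels give no promoter, cell type or allele for OE. For the comparison of responses, 3 WT (Nampt +/+) and 3 Het (Nampt +/-) livers after 200 mg/kg APAP were set against 3 WT and 2 Het livers after saline, and a further WT saline liver labelled IG was a group of its own. WT saline 1 and 2 were 12 weeks old, and the other WT and Het mice were 11 weeks old.

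APAP is a painkiller that hepatocytes clear by glucuronidation and sulfation. At high dose, cytochrome P450 enzymes, Cyp2e1 above all, convert a fraction of the drug to a reactive quinone imine that uses up glutathione and injures the hepatocytes around the central vein, where these enzymes are concentrated. Nampt makes nicotinamide mononucleotide from nicotinamide, the rate-limiting step by which most cells recycle NAD, and the study's title asks whether it protects the liver against this injury. An acute phase response, in which hepatocytes secrete serum amyloid and other plasma proteins under the control of Stat3, and induction of zinc-binding metallothioneins are well-known parts of liver injury.

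The libraries did not divide first by treatment. OE APAP 200 (1) and OE saline (2) lay closer to each other than any other pair among the 5, with a median absolute log2 difference of 0.192 and 273 genes at least 2-fold apart. OE APAP 200 (2) and OE saline (1), the pair of lane L008, came next, with 0.217 and 387 genes. Libraries with the same treatment were farther apart: OE APAP 200 (1) and (2) differed by a median of 0.325 with 854 genes at least 2-fold apart, and the 2 OE saline libraries by 0.356 with 995 such genes. Over all 17 libraries, OE APAP 200 (1) and OE saline (2) both scored 38.6 on the second principal component (13.6% of the variance), and the next highest score was 14.8.

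Heat shock and sterol genes marked that pair. Hspa8, the constitutive Hsp70 chaperone, which was chosen after its values were seen, stood at 1926, 494 and 368.5 FPKM in OE APAP 200 (1), 200 (2) and 300, against 343 and 2149 FPKM in OE saline (1) and (2). The 6 WT and Het saline livers, the IG library among them, had 526 to 904 FPKM of Hspa8. Hsph1, an Hsp110 co-chaperone, stood at 72.1, 9.14 and 8.65 FPKM in the 3 OE APAP libraries, against 5.55 and 94.8 FPKM in the 2 OE saline libraries. Thus OE APAP 200 (1) and OE saline (2) were high in both genes and the other 3 libraries low. Fdps, an enzyme of cholesterol synthesis, ran the other way, with 26.7, 331 and 251 FPKM after APAP against 372 and 56.8 FPKM after saline. Scd1, the stearoyl-CoA desaturase, showed the same order, with 74.8, 719 and 692 FPKM after APAP against 792 and 48.6 FPKM after saline. Both genes were low in OE APAP 200 (1) and OE saline (2). Values without these 2 libraries are given beside several list medians below; what sets the pair apart was not tested.

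**Figure D1:**
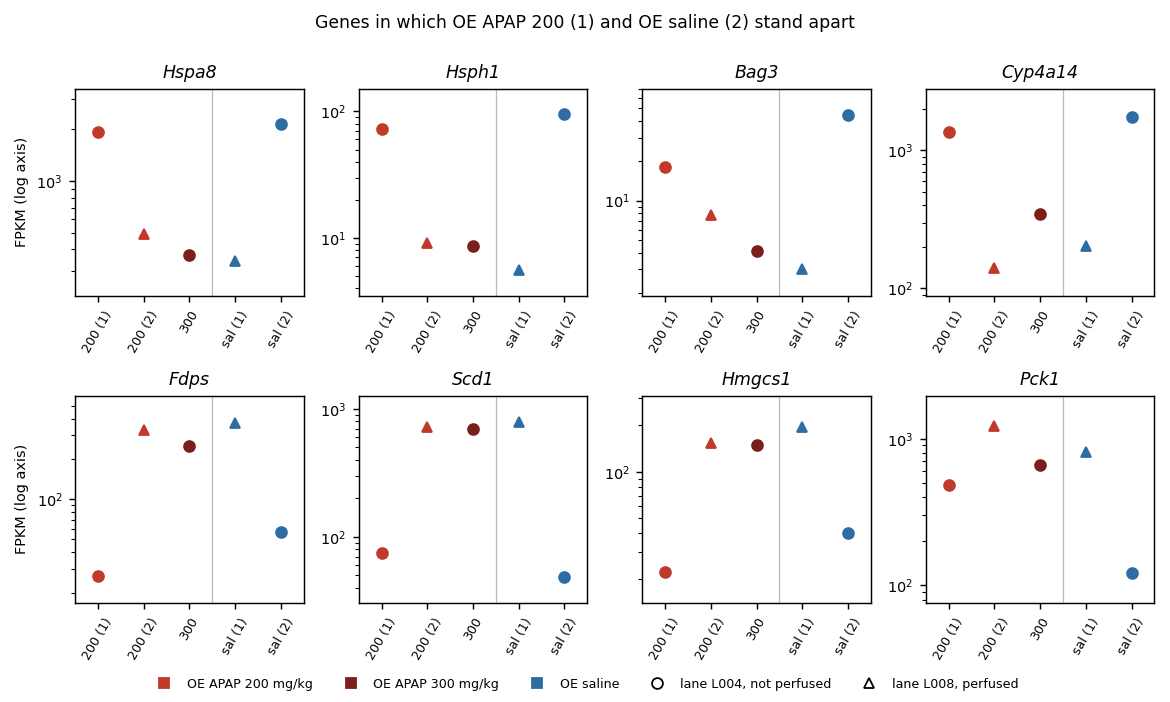
FPKM of 8 genes (log axis) in each of the 5 OE libraries, OE APAP left of OE saline, with circles for lane L004 (not perfused) and triangles for lane L008 (perfused). Hspa8, Hsph1, Bag3 and Cyp4a14 were high in OE APAP 200 (1) and OE saline (2), and Fdps, Scd1, Hmgcs1 and Pck1 were lowest in these 2 libraries.

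Next, the OE saline livers were set beside the other saline livers, without a test. Mt1, a metallothionein, stood at 106 and 26.5 FPKM in OE saline (1) and (2), against 6.75 to 16.3 FPKM in the 6 WT and Het saline livers. Glul, a glutamine synthetase made only in the innermost ring of hepatocytes at the central vein, stood at 102 FPKM in OE saline (1) and 313 FPKM in OE saline (2), against 320.5 to 466 FPKM in the WT and Het saline livers. Cyp2e1 stood at 734 FPKM in OE saline (1) and 3831 FPKM in OE saline (2), against 1662 to 2983 FPKM in the WT and Het saline livers. Both OE saline livers were thus above the other saline livers in Mt1. In Glul and Cyp2e1, OE saline (1) was below all of them, whereas OE saline (2) was just below their range in Glul and above it in Cyp2e1.

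No gene passed the test in the comparison of the 3 OE APAP with the 2 OE saline livers (0 of 10867 by limma with Benjamini-Hochberg adjustment at 0.05; 0% called; smallest adjusted p = 0.115). At an unadjusted p below 0.05 there were 661 genes (6.08%), 345 of them higher after APAP (3.17% of those tested) and 316 lower (2.91%). The libraries of the treatments did not overlap for 1193 genes (11%), of which 600 (5.52%) were higher and 593 (5.46%) lower after APAP. The median absolute log2 difference was 0.16, smaller than the median standard error of 0.20. The difference had the same sign within lane L004 and within lane L008 for 5108 of the 10867 genes (47.0%). With lane in place of perfusion, 12 of the 10867 genes passed. With the 5 OE libraries alone, where lane and perfusion are the same split, 0 passed. Some genes below are said to pass this comparison under another setting. Each of them had a limma adjusted p of up to 0.999 under a further setting. With the filter removed or failed zeros kept, the log2 difference of a gene already tested does not change. Its adjusted p then also depends on the genes added, which with failed zeros kept are failed estimates such as mt-Co1. All differences are given as fitted log2 values on the log2(FPKM + 1) scale, adjusted for perfusion, with ± for the standard error (SE). This scale understates the change of genes with low FPKM. Libraries after APAP are listed in the order 200 (1), 200 (2) and 300, and those after saline in the order (1) and (2).

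Nampt itself (chromosome 12, 32819545 to 32853349, plus strand of GRCm38) stood at 36.0, 18.5 and 18.2 FPKM in the OE APAP livers and at 22.4 and 27.2 FPKM in the OE saline livers. The groups overlapped, the highest and the lowest values both lying among the APAP livers. The APAP minus saline difference was -0.13 ± 0.24 (95% interval -0.66 to 0.39, limma adjusted p = 0.946). The WT and Het saline livers had 15.3 to 26.0 FPKM, so OE saline (1) lay within their range and OE saline (2) just above it.

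Mt1 had the largest difference among the protein-coding genes, predicted genes left out, whose libraries did not overlap and whose higher group reached 5 FPKM. The promoters of Mt1 and Mt2, neighbouring genes on chromosome 8, are printed here because both genes were highest in the same 2 libraries, OE APAP 200 (2) and OE APAP 300. The metal response element, bound by the zinc-sensing factor Mtf1, was searched as TGCACNC or TGCGCNC on both strands, and matches are in capitals (RefSeq sequences of GRCm38.p6, 5′ to 3′, 300 bases around each start site).
Mt1 promoter, chr8:94178839-94179138, plus strand: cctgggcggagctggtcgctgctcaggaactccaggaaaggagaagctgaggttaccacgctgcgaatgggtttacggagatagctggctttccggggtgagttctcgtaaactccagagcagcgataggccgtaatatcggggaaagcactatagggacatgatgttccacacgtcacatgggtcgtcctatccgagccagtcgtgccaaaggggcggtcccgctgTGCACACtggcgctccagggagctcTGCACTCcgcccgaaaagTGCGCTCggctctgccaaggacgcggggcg
Mt2 promoter, chr8:94172368-94172667, plus strand: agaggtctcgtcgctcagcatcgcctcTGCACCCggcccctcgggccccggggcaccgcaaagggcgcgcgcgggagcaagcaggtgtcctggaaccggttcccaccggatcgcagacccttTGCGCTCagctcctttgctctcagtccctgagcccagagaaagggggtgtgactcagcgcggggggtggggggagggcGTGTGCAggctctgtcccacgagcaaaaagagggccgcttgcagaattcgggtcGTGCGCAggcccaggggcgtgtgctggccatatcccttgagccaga
The Mt1 window held 3 matches and the Mt2 window 4, with no overlap between matches. Of 32851 promoters of this length, 25.7% held at least 1 match, 1.97% at least 3 and 0.517% at least 4. A match describes letters in the window and not a bound site.

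Mt1 stood at 131, 1757 and 348 FPKM in the OE APAP livers, against 106 and 26.5 FPKM in the OE saline livers. No APAP library overlapped the saline libraries, but OE APAP 200 (1) lay only just above OE saline (1). The difference was 3.17 ± 0.85 (95% interval 1.29 to 5.05) and did not pass (limma adjusted p = 0.663). Mt2, its neighbour, stood at 10.3, 1425 and 201 FPKM after APAP, against 36.1 and 1.81 FPKM after saline. OE APAP 200 (1) was below OE saline (1) here, so the groups overlapped, and the difference was 4.25 ± 1.49 (adjusted p = 0.777).

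Of the 11 members of the metallothionein and zinc transporter list, Mt1 and Mt2 included, 8 were tested. Of the rest, 2 had failed estimates and 1 was below the level required. None passed, and 4 of 8 had an unadjusted p below 0.05, all higher after APAP (3.17% of all genes were called so). Besides Mt1 and Mt2 these were Slc39a14, a zinc importer of hepatocytes, at 0.60 ± 0.22, and Slc30a10, a manganese exporter, at 0.63 ± 0.28. The FPKM of Slc39a14 was 56.9, 80.6 and 43.8 in the OE APAP livers and 30.7 and 47.4 in the OE saline livers. Mtf1 mRNA did not differ beyond its error (0.01 ± 0.20, 95% interval -0.43 to 0.44). The list's median difference was 0.46, against 0.00 for all genes tested, and it was 0.72 without OE APAP 200 (1) and OE saline (2).

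**Figure D2:**
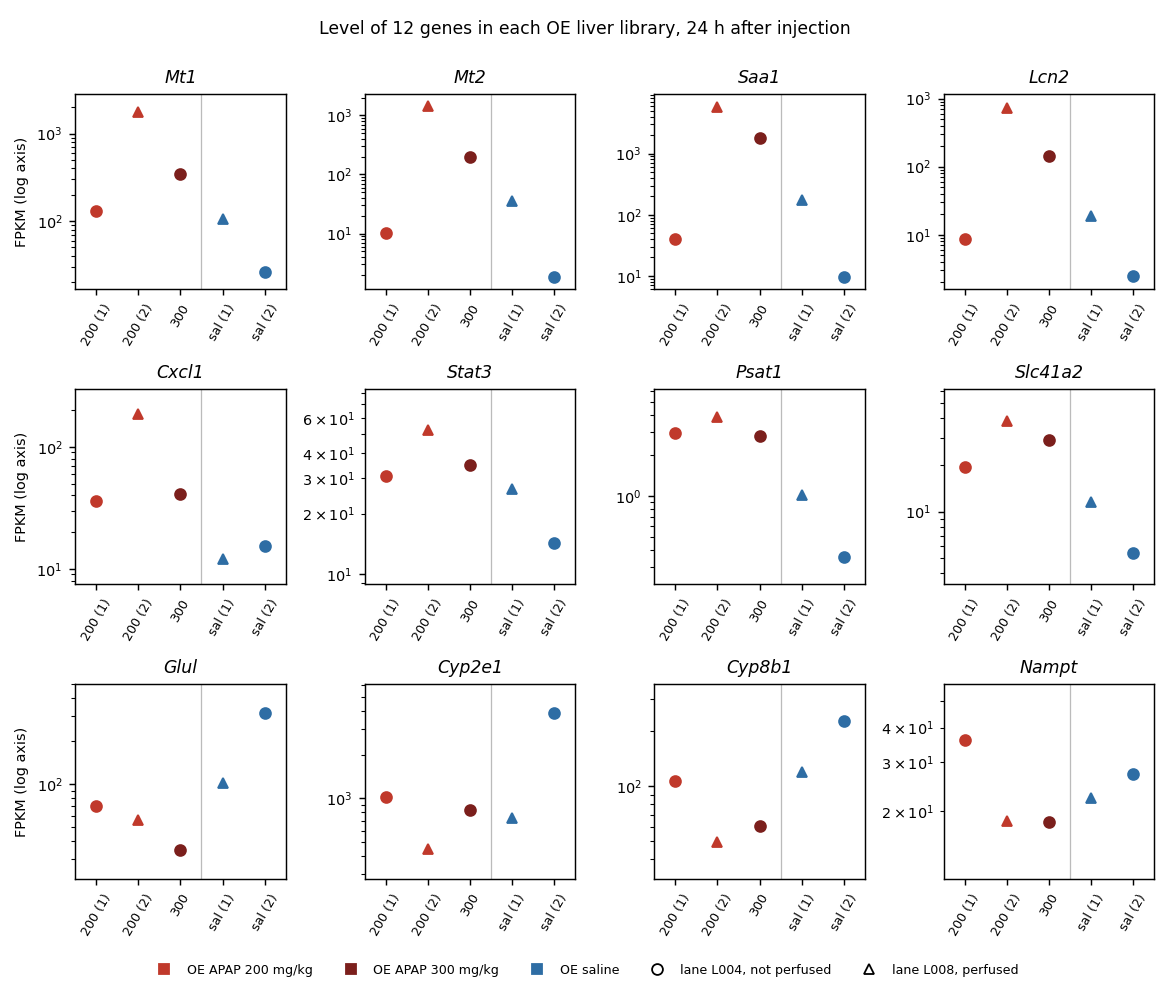
FPKM of 12 genes (log axis) in each of the 5 OE libraries 24 h after injection, OE APAP left of OE saline, with circles for lane L004 (not perfused) and triangles for lane L008 (perfused). Mt1, Cxcl1, Stat3, Psat1 and Slc41a2 were higher in all 3 APAP libraries than in both saline libraries, Glul and Cyp8b1 were lower in all 3, and Mt2, Saa1, Lcn2, Cyp2e1 and Nampt overlapped.

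Acute phase genes were higher after APAP in 23 of 25 members tested by sign, and none passed. An unadjusted p below 0.05 was reached by 14 of 25, all higher after APAP, against 3.17% of all genes. This count was 6 without the perfusion term (266 of 10867 genes were called higher there), 11 with array weights (190 of 10867) and 15 in the 5 OE libraries alone (589 of 10867). Of the 25, 4 were higher without overlap (5.52% of all genes were) and 21 overlapped. The list's median difference was 0.99, against 0.00 for all genes tested, and leaving out 1 library at a time gave medians of 0.62 (without OE APAP 200 (2)) to 1.25 (without OE APAP 200 (1)). Within lanes the medians were 0.19 for OE APAP 200 (1) minus OE saline (2), 1.02 for OE APAP 300 minus OE saline (2) and 1.38 for OE APAP 200 (2) minus OE saline (1). OE APAP 200 (1) therefore stood nearest to its saline library.

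Stat3, the transcription factor that carries the interleukin 6 signal to these genes, had the smallest p of the list. It stood at 30.7, 52.2 and 34.8 FPKM in the OE APAP livers, against 26.5 and 14.2 FPKM in the OE saline livers. The groups did not overlap, and the difference was 1.01 ± 0.20 (95% interval 0.58 to 1.45, limma adjusted p = 0.403). With lane in place of perfusion it was 1.07 and passed (adjusted p = 0.0499), as 1 of the 12 genes that did so. Itih3, which stabilises the hyaluronan matrix, was at 570, 666 and 749 FPKM after APAP, against 468 and 419 FPKM after saline (0.62 ± 0.19). Crp, C-reactive protein, was at 127, 188 and 205 FPKM after APAP, against 87.8 and 119 FPKM after saline (0.75 ± 0.20). Neither gene overlapped between the treatments.

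Members with larger differences varied more between libraries. Saa1, a serum amyloid protein, stood at 39.5, 5808 and 1782 FPKM in the OE APAP livers, against 173 and 9.59 FPKM in the OE saline livers (4.64 ± 1.44, 95% interval 1.40 to 7.89, limma adjusted p = 0.693). OE APAP 200 (1) was below OE saline (1), within the 25.1 to 155 FPKM of the WT and Het saline livers. Saa2 followed the same order, with 13.9, 4851 and 1262 FPKM after APAP against 72.6 and 5.84 FPKM after saline. Saa1 and Saa2 are close copies that can share reads, so the division between them is uncertain. Apcs, serum amyloid P, stood at 85.9, 538 and 546 FPKM after APAP, against 124 and 39.8 FPKM after saline (2.20 ± 0.57). Lcn2, the iron-withholding lipocalin, stood at 8.57, 725 and 143 FPKM after APAP, against 19.2 and 2.50 FPKM after saline (3.88 ± 1.64). In each of these 4 genes the high libraries were OE APAP 200 (2) and OE APAP 300, and OE APAP 200 (1) lay within the range of the saline libraries.

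Among cytokines, chemokines and feedback genes, 16 of 27 were tested, none passed, and 7 of 16 had an unadjusted p below 0.05, all higher after APAP (3.17% of all genes were called so). The list's median difference was 0.50, 0.26 without OE APAP 200 (2), 0.79 without OE APAP 300, and 0.46 without OE APAP 200 (1) and OE saline (2). Cxcl1, the chief neutrophil-attracting chemokine of mouse liver, stood at 35.7, 186 and 41.3 FPKM in the OE APAP livers, against 11.9 and 15.4 FPKM in the OE saline livers (2.27 ± 0.73, limma adjusted p = 0.693). All 3 APAP libraries were above both saline libraries. Osmr, the oncostatin M receptor, stood at 3.31, 3.18 and 1.70 FPKM after APAP, against 1.34 and 1.14 FPKM after saline (0.71 ± 0.19), again without overlap. Ccl2, which attracts monocytes, stood at 4.59, 12.4 and 2.60 FPKM after APAP, against 1.78 and 2.12 FPKM after saline (1.17 ± 0.65). Socs3, the feedback inhibitor of Stat3 signalling, overlapped, with 6.05, 19.7 and 8.96 FPKM after APAP against 6.22 and 1.27 FPKM after saline (1.58 ± 0.63).

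Cell type markers varied along with these genes in part. The summed FPKM of 9 neutrophil markers was 5.76, 73.4 and 8.53 in the OE APAP livers, against 9.65 and 1.94 in the OE saline livers. It was highest in OE APAP 200 (2), which also had the highest Saa1, Lcn2 and Cxcl1. Of the 9, only S100a8 and S100a9 were tested, and the defining markers Ly6g, Camp, Ngp, Mmp8 and Cxcr2 were below 1 FPKM in all 5 libraries. Het APAP livers had 80.9 to 466 of the same sum. The 12 monocyte and macrophage markers, F10 and Lyz2 among them, summed to 212, 348 and 317 FPKM after APAP and 365 and 197 FPKM after saline. Such a sum is led by its most abundant members and need not follow infiltrating cells. It was 377 to 467 FPKM in Het APAP and 246 to 287 FPKM in WT and Het saline livers, although the list's median Het response was 2.02. The 10 Kupffer cell markers summed to 146, 293 and 266 FPKM after APAP and 295 and 137 FPKM after saline. Both sums were lowest in OE APAP 200 (1) and OE saline (2), whatever the treatment. Sinusoidal endothelial markers summed to 77.8, 98.1 and 119 FPKM after APAP and 119 and 79.8 FPKM after saline, and stellate and matrix markers to 143, 149 and 188 FPKM after APAP and 181 and 114 FPKM after saline. Erythroid and platelet markers summed to 260, 97.2 and 431 FPKM after APAP and 225 and 179 FPKM after saline, and cholangiocyte markers to 21.7, 45.9 and 23.5 FPKM after APAP and 33.8 and 17.2 FPKM after saline. All 4 sums overlapped, and all but the erythroid and platelet sum were likewise lowest in OE APAP 200 (1) and OE saline (2). In the lymphocyte list, 8 of 10 markers, among them Cd3e and Cd4, were below 1 FPKM in all 5 libraries. The part of these cells in the results was not tested, and in bulk RNA fewer cells of a type and less RNA per cell cannot be told apart.

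Genes of pericentral hepatocytes were lower after APAP by sign in 17 of 18 members tested, and none passed. An unadjusted p below 0.05 was reached by 7 of 18, all lower after APAP (2.91% of all genes were called so). The median difference was -0.70, and within lanes it was -1.19 for OE APAP 200 (1) minus OE saline (2), -1.04 for OE APAP 300 minus OE saline (2) and -0.58 for the pair of lane L008. It was -0.22 without OE saline (2), -1.15 without OE saline (1), and -0.17 without OE APAP 200 (1) and OE saline (2), so the size rested on OE saline (2). Glul stood at 70.5, 56.3 and 34.8 FPKM in the OE APAP livers, against 102 and 313 FPKM in the OE saline livers. All 3 APAP libraries were below both saline libraries, and the difference was -1.82 ± 0.38 (95% interval -2.66 to -0.99, limma adjusted p = 0.551). Without 1 library at a time it ran from -2.58 (without OE saline (1)) to -0.95.

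Of the 18 pericentral genes tested, 6 were lower without overlap (5.46% of all genes were) and 12 overlapped. Rhbg, an ammonium transporter, stood at 1.15, 0.588 and 0.863 FPKM in the OE APAP livers, against 1.86 and 2.99 FPKM in the OE saline livers (-0.92 ± 0.20, limma adjusted p = 0.557), and passed with lane in place of perfusion (-0.94, adjusted p = 0.0499). Oat, ornithine aminotransferase, stood at 309, 235 and 192 FPKM after APAP, against 326 and 785 FPKM after saline (-1.08 ± 0.48). Neither gene overlapped between the treatments. Axin2, a target of Wnt signalling, was at 0.820, 0.645 and 0.732 FPKM after APAP and 0.996 and 2.42 FPKM after saline (-0.62 ± 0.29). Notum and Rnf43, feedback inhibitors of Wnt signalling, were at -0.77 ± 0.30 and -0.93 ± 0.39, and their libraries overlapped. The summed FPKM of 9 hepatocyte markers was 21400, 22200 and 25600 in the OE APAP livers and 27800 and 22300 in the OE saline livers, and these overlapped too.

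**Figure D3:**
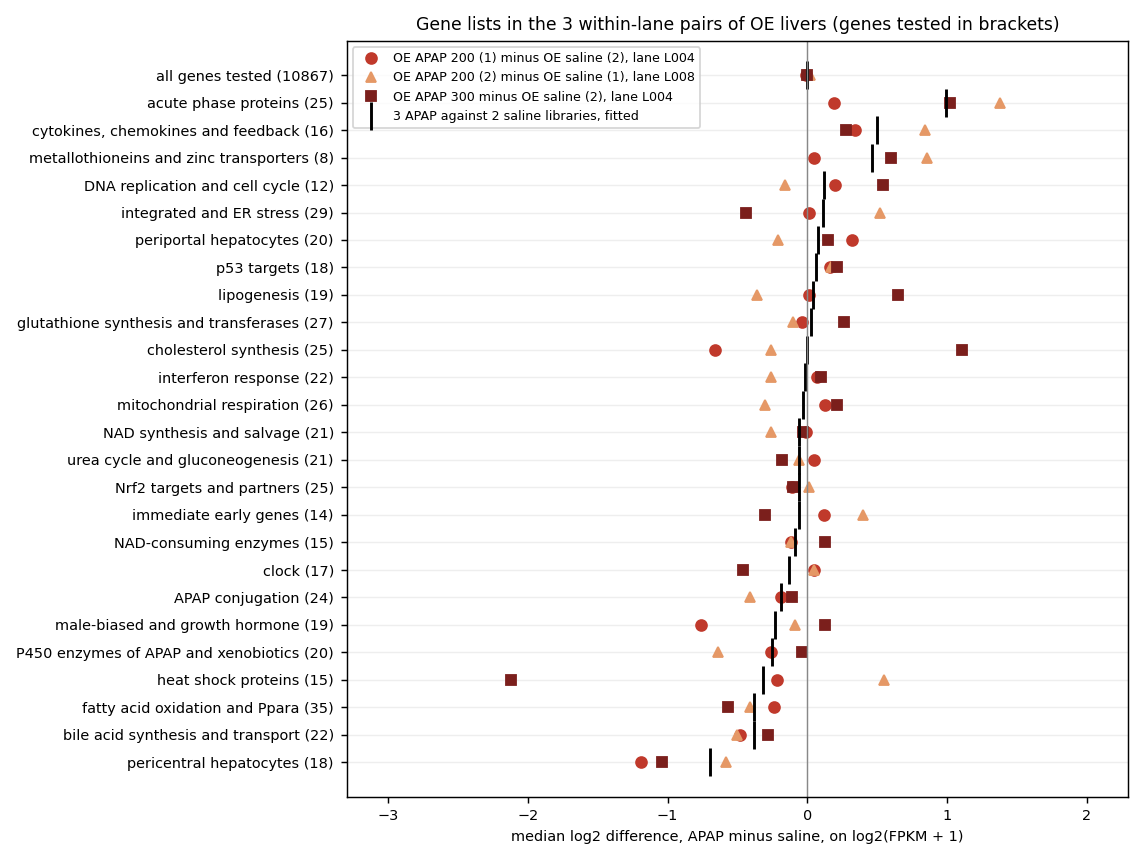
Median log2 difference of each gene list, APAP minus saline, on log2(FPKM + 1), for the 3 within-lane pairs of OE libraries (coloured points) and for the fit of 3 APAP against 2 saline libraries (black bars). Acute phase genes lay between 0.19 and 1.38 and pericentral genes between -1.19 and -0.58 in the 3 pairs, while heat shock genes ran from -2.12 to 0.55 and cholesterol synthesis from -0.66 to 1.11.

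The P450 enzymes that act on APAP and other foreign compounds were not resolved. Of 20 tested, none passed and 1, Cyp2d9, had an unadjusted p below 0.05, lower after APAP (2.91% of all genes were called so). The median difference was -0.25, but 0.04 without OE APAP 200 (2) and 0.16 without OE APAP 200 (1) and OE saline (2). Cyp2e1 stood at 1016, 446 and 829 FPKM in the OE APAP livers, against 734 and 3831 FPKM in the OE saline livers (-1.27 ± 0.74, 95% interval -2.90 to 0.36). OE saline (2) alone stood high, and OE saline (1) lay within the APAP libraries. Cyp1a2, a second source of the reactive product, was at 16.2, 49.7 and 52.6 FPKM after APAP and 93.7 and 38.1 FPKM after saline (-0.54 ± 0.55). Cyp2d9, a male-biased P450 with close copies that can share reads, was at 266, 122 and 152 FPKM after APAP and 227 and 781 FPKM after saline (-1.39 ± 0.40, limma adjusted p = 0.693). It passed with lane in place of perfusion (-1.55, adjusted p = 0.0499).

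Among the enzymes that conjugate APAP, 24 were tested, none passed and none had an unadjusted p below 0.05. Their median difference was -0.19, but 0.04 without OE APAP 200 (2) and 0.00 without OE APAP 200 (1) and OE saline (2). Ugt1a1, a glucuronosyltransferase, was at 105, 38.9 and 66.4 FPKM in the OE APAP livers and 82.7 and 147 FPKM in the OE saline livers (-0.80 ± 0.42). Ugp2, which makes the UDP-glucose from which the glucuronic acid donor is formed, was at 132, 84.8 and 128 FPKM after APAP and 115 and 205 FPKM after saline (-0.51 ± 0.26). Both overlapped between the treatments, and reads of Ugt1a1 may be split with the other Ugt1a genes, which share its exons. Sult2a8, a sulfotransferase, was at 146, 132 and 278 FPKM after APAP, all below the 316 and 371 FPKM after saline (-0.93 ± 0.44).

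Glutathione genes had a median difference of 0.03 over 27 tested. Without 1 library at a time the median ran from -0.10 to 0.16. Of these genes, 2 had an unadjusted p below 0.05, both higher after APAP, where 3.17% of all genes were called so. Gsta1, an alpha-class glutathione transferase with close copies that can share reads, stood at 41.8, 101 and 71.9 FPKM in the OE APAP livers, against 45.1 and 6.97 FPKM in the OE saline livers (1.93 ± 0.60, limma adjusted p = 0.693). It overlapped through OE saline (1), and with lane in place of perfusion it passed (2.15, adjusted p = 0.0178). Nrf2 targets and partners had a median of -0.06 over 25 tested, and 3 had an unadjusted p below 0.05, all lower after APAP (2.91% of all genes were called so). These were Abcc3, an exporter of conjugates (-0.93 ± 0.28), Osgin1 (-0.63 ± 0.24) and Keap1, the inhibitor of Nrf2 (-0.31 ± 0.13). Osgin1 was without overlap, at 19.2, 18.1 and 12.6 FPKM after APAP and 35.6 and 19.4 FPKM after saline, while Abcc3 and Keap1 overlapped. Hmox1, heme oxygenase, was at 18.6, 30.7 and 15.1 FPKM after APAP and 14.8 and 16.0 FPKM after saline (0.36 ± 0.53). Nqo1, a quinone reductase, was at 7.45, 4.06 and 7.14 FPKM after APAP and 3.34 and 5.53 FPKM after saline (0.39 ± 0.43). Neither was separated by treatment.

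No stress or p53 gene passed. Psat1, an enzyme of serine synthesis that Atf4 drives, had among the smallest p-values of all genes. It stood at 2.95, 3.87 and 2.76 FPKM in the OE APAP livers, against 1.01 and 0.356 FPKM in the OE saline livers (1.36 ± 0.21, 95% interval 0.91 to 1.81, limma adjusted p = 0.115). The groups did not overlap, and all 5 levels are low. It passed with lane in place of perfusion (1.41, adjusted p = 0.0499). It also passed with no filter on low values and with failed zeros kept (both limma adjusted p = 0.0208). In these last settings its difference stayed at 1.36 and other genes entered the adjustment. The integrated and ER stress list as a whole had a median of 0.11, with 3 of 29 at an unadjusted p below 0.05, all higher (3.17% of all genes were called so). The median was -0.26 without OE saline (1), 0.53 without OE saline (2) and 0.35 without OE APAP 200 (1) and OE saline (2). Atf3, a stress-induced transcription factor, overlapped (0.57 ± 0.37). Of 18 p53 targets tested, 3 had an unadjusted p below 0.05, all higher after APAP (3.17% of all genes were called so). These were Fas, the death receptor (0.74 ± 0.20), Trp53inp1, a pro-autophagic protein (1.36 ± 0.47), and Cdkn1a, the p21 cell cycle inhibitor (0.98 ± 0.39). Cdkn1a stood at 1.24, 2.56 and 1.53 FPKM after APAP, against 0.243 and 0.415 FPKM after saline, without overlap.

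Fatty acid oxidation and bile acid genes had negative median differences, and none passed. Of 35 fatty acid oxidation and Ppara genes tested, 0 had a positive difference, against 50.2% of all genes. An unadjusted p below 0.05 was reached by 3, all lower, against 2.91% of all genes. The median was -0.38, but -0.11 without OE saline (2) and -0.15 without OE APAP 200 (1) and OE saline (2). Acaa1b, a peroxisomal thiolase, stood at 158.8, 41.3 and 108 FPKM in the OE APAP livers, against 159.5 and 249 FPKM in the OE saline livers (-1.22 ± 0.55). Its APAP libraries lay below both saline libraries, OE APAP 200 (1) by less than 1 FPKM. Creb3l3, a liver transcription factor of fasting metabolism, stood at 96.3, 78.1 and 82.5 FPKM after APAP, against 104 and 117 FPKM after saline (-0.39 ± 0.17). The bile acid list had a median of -0.38 over 22 tested, and 2 had an unadjusted p below 0.05, both lower (2.91% of all genes were called so). This median was -0.62 with OE saline (1) left out and -0.14 with OE APAP 200 (2) left out. It was -0.10 when both OE APAP 200 (1) and OE saline (2) were left out. Cyp8b1, the sterol 12-alpha-hydroxylase, stood at 107, 49.9 and 60.9 FPKM after APAP, against 120 and 226 FPKM after saline (-1.31 ± 0.43, limma adjusted p = 0.693), without overlap. Cyp7a1, which catalyses the first and rate-limiting step from cholesterol to bile acids, overlapped, with 58.7, 7.27 and 30.2 FPKM after APAP and 34.8 and 129 FPKM after saline (-1.56 ± 0.73).

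NAD genes were close to even. Of 21 genes of NAD synthesis and salvage tested, none passed and none had an unadjusted p below 0.05, and the median difference was -0.06 (-0.14 to 0.04 without 1 library at a time). Nnmt, which methylates nicotinamide and so removes it from salvage, stood at 274, 436 and 307 FPKM in the OE APAP livers, against 214 and 198 FPKM in the OE saline livers (0.69 ± 0.37, 95% interval -0.10 to 1.48). Acmsd, which diverts the tryptophan pathway away from NAD, stood at 22.6, 36.0 and 23.3 FPKM after APAP, against 22.1 and 9.04 FPKM after saline (0.93 ± 0.43). Neither gene overlapped, although OE APAP 200 (1) and OE saline (1) were nearly level for Acmsd. Of the 21 genes, 2 were higher and 1 lower without overlap and 18 overlapped, where 11% of all genes were without overlap. Among 15 NAD-consuming enzymes, Cd38, the main NAD glycohydrolase, was at 7.12, 7.55 and 10.3 FPKM after APAP and 6.31 and 5.30 FPKM after saline (0.47 ± 0.14, limma adjusted p = 0.693). Sirt7, a nuclear deacylase, was at 10.7, 12.3 and 12.6 FPKM after APAP and 18.3 and 14.0 FPKM after saline (-0.36 ± 0.13). Parp1, the main DNA-damage poly-ADP-ribose polymerase, was at 9.32, 9.83 and 10.4 FPKM after APAP and 11.2 and 10.7 FPKM after saline, a difference of -0.12 ± 0.18.

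The remaining lists had no member that passed. Pck1, the rate-limiting enzyme of gluconeogenesis, stood at 484, 1231 and 664 FPKM in the OE APAP livers, against 806 and 121 FPKM in the OE saline livers (1.42 ± 0.56), so that OE saline (2) was low and the rest overlapped. The clock list held Arntl, the Bmal1 subunit of the clock activator, at 1.32, 1.91 and 3.79 FPKM after APAP, against 0.739 and 1.03 FPKM after saline (0.75 ± 0.21). Of 17 clock genes tested, 2 were higher at an unadjusted p below 0.05 (Arntl and Nfil3, 1.33 ± 0.39), against 3.17% of all genes. Another 3 were lower, against 2.91% of all genes: Per3 (-0.81 ± 0.35), Hlf (-0.69 ± 0.27) and Cry2 (-0.46 ± 0.19). Arntl and Cry2 were without overlap and the other 15 overlapped, where 11% of all genes were without overlap. The list's median was -0.13 (-0.18 to -0.10 without 1 library at a time). The heat shock list had a median of -0.32, but -1.42 without OE saline (1) 0.71 without OE saline (2), and 0.30 without OE APAP 200 (1) and OE saline (2). Cholesterol synthesis had a median of 0.00, but -0.54 without OE APAP 300 and 0.44 without OE APAP 200 (1). The medians of periportal hepatocyte genes (0.08), urea cycle and gluconeogenesis (-0.06), mitochondrial respiration (-0.03), lipogenesis (0.04), interferon response (-0.02) and immediate early genes (-0.06) lay near the 0.00 of all genes tested, but single libraries moved some of them. Without OE saline (2) and without OE saline (1), the median was -0.44 and 0.45 for lipogenesis, -0.40 and 0.23 for interferon response, and -0.11 and 0.33 for periportal genes. For immediate early genes it was -0.33 without OE APAP 200 (2) and 0.25 without OE APAP 300. DNA replication and cell cycle genes had a median of 0.12 (0.03 without OE saline (2)). Male-biased and growth hormone genes had -0.23, but -0.02 without OE APAP 200 (1) and 0.05 without OE APAP 200 (1) and OE saline (2).

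The largest differences in each direction among protein-coding genes without overlap, at 5 FPKM or more in the higher group, are described as values since none passed. Predicted genes and pseudogenes were left out. Slc41a2, a magnesium transporter, had among the smallest p-values of all, at 19.3, 38.5 and 29.0 FPKM in the OE APAP livers against 11.6 and 5.45 FPKM in the OE saline livers (1.77 ± 0.26, 95% interval 1.20 to 2.34, limma adjusted p = 0.115). With lane in place of perfusion it passed (1.84, adjusted p = 0.0372). Dnajc12, a co-chaperone of the aromatic amino acid hydroxylases, stood at 10.7, 39.1 and 27.7 FPKM after APAP, against 10.1 and 5.95 FPKM after saline (1.55 ± 0.33). Its difference ran from 1.24 to 1.95 without 1 library at a time. Errfi1, a feedback inhibitor of the epidermal growth factor receptor, stood at 317, 416 and 241 FPKM after APAP, against 157 and 109 FPKM after saline (1.32 ± 0.26, adjusted p = 0.403). The WT and Het saline livers had 241 to 467 FPKM of Errfi1, so here the OE saline livers were the low ones. Arhgef26, Etfbkmt, Cyp17a1 and Serpina3n completed the higher genes beside Mt1, Cxcl1, Trp53inp1, Ccl2 and Stat3, with differences of 1.52, 1.48, 1.25 and 0.99.

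On the lower side, Arrdc3, an arrestin-domain protein that promotes receptor turnover, led with 11.6, 7.36 and 49.8 FPKM in the OE APAP livers, against 77.8 and 89.7 FPKM in the OE saline livers (-2.24 ± 0.43, 95% interval -3.17 to -1.31, limma adjusted p = 0.403). The liver given 300 mg/kg lay nearer to the saline livers than to those given 200 mg/kg. Slc2a2, the glucose transporter of hepatocytes, stood at 58.8, 32.0 and 71.7 FPKM after APAP, against 109 and 112 FPKM after saline (-1.08 ± 0.45). Fitm1, a lipid droplet protein, stood at 1.24, 2.37 and 6.33 FPKM after APAP, against 8.21 and 8.89 FPKM after saline (-1.24 ± 0.30). Both genes were lower in all APAP libraries than in both saline libraries, and the lowest library was OE APAP 200 (2) for Slc2a2 and OE APAP 200 (1) for Fitm1. Paqr7, a membrane progestin receptor, stood at 9.66, 3.80 and 4.83 FPKM after APAP, against 10.7 and 14.5 FPKM after saline (-1.06 ± 0.24). It passed with lane in place of perfusion (-1.14, adjusted p = 0.0499), and its difference ran from -1.34 to -0.8 without 1 library at a time. Xlr3a (-1.73), Ces2c, a carboxylesterase (-1.17), and Snurf (-1.27, which overlaps Snrpn so that reads may be split) were others beside Glul, Cyp8b1, Acaa1b and Oat. Mme, the cell surface peptidase neprilysin, was left out of this group for its low level but had a small p, at 1.23, 0.860 and 1.40 FPKM after APAP against 2.82 and 4.18 FPKM after saline (-1.07 ± 0.17, adjusted p = 0.135). It passed with lane in place of perfusion (-1.11, adjusted p = 0.0499). It also passed with no filter on low values (limma adjusted p = 0.0238) and with failed zeros kept (adjusted p = 0.0283). In these last settings its difference stayed at -1.07 and other genes entered the adjustment.

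**Figure D4:**
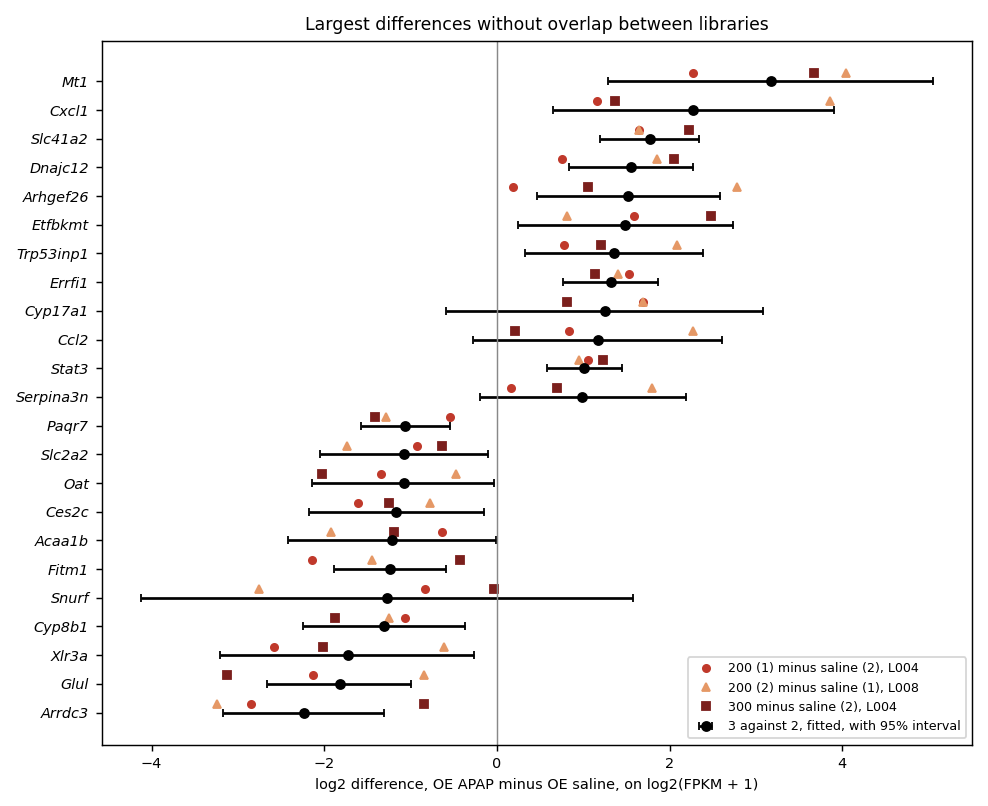
Log2 difference, OE APAP minus OE saline, on log2(FPKM + 1), for 12 higher and 11 lower genes among the largest differences without overlap; coloured points are the 3 within-lane pairs and black points the fit with its 95% interval. Slc41a2, Stat3 and Errfi1 had close values in the 3 pairs, while Cxcl1 and Arhgef26 were carried mostly by the pair of lane L008.

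At 200 mg/kg alone, with 2 OE APAP against 2 OE saline livers, no gene passed (0 of 10867, 0% called; smallest adjusted p = 0.188) and 538 had an unadjusted p below 0.05. Arrdc3 was at -3.04 ± 0.46, Psat1 at 1.41 ± 0.23, Mme at -1.13 ± 0.19 and Slc41a2 at 1.65 ± 0.29. Glul was at -1.49 ± 0.42 and Mt1 at 3.15 ± 0.92. With failed zeros kept, Arrdc3, Psat1 and Mme passed here (limma adjusted p = 0.0393, 0.0393 and 0.0455). Their differences were the same, and failed estimates had entered the adjustment. Neither the acute phase median (0.95) nor the pericentral median (-0.88) was far from its value over both doses.

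The liver given 300 mg/kg is a lone library, and its test assumes that it varies like the other groups. Set against the OE saline livers, no gene passed (0 of 10867, 0% called; smallest adjusted p = 0.101), and 1749 had an unadjusted p below 0.05, 850 higher and 899 lower. Set against the 2 OE livers given 200 mg/kg, none passed either (0 of 10867, 0% called; smallest adjusted p = 0.0683), with 2016 at an unadjusted p below 0.05. With lane in place of perfusion genes passed in both comparisons, which they did not with the 5 OE libraries alone. Lane and perfusion are the same split within these 5 libraries. The counts therefore also depend on how the spread between libraries was estimated. The liver was closest to OE saline (1) (median absolute log2 difference 0.254, 375 genes at least 2-fold apart) and farthest from OE saline (2) (0.380, 1225 genes), with which it shared its lane.

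The genes with the smallest p at 300 mg/kg, and 3 list members beside them, are given as values. Vps39, a subunit of the lysosomal tethering complex, stood at 10.4 FPKM in the 300 mg/kg liver, against 3.02 and 4.05 FPKM in the 200 mg/kg livers and 5.19 and 3.67 FPKM in the OE saline livers. Its difference was 1.46 ± 0.20 from 200 mg/kg (limma adjusted p = 0.0683) and 1.20 ± 0.20 from saline (adjusted p = 0.101). Snx22, a sorting nexin, stood at 78.9 FPKM at 300 mg/kg, against 28.0 and 49.2 FPKM at 200 mg/kg and 43.9 and 24.7 FPKM after saline (1.49 ± 0.23 from saline). Tyms, thymidylate synthase, stood at 11.8 FPKM at 300 mg/kg, against 2.01 and 5.87 FPKM at 200 mg/kg and 6.66 and 4.62 FPKM after saline (1.73 ± 0.28 from 200 mg/kg). In each of these the 300 mg/kg library was above all 4 others. Against OE APAP 200 (1) alone, without OE APAP 200 (2), Tyms (2.09, adjusted p = 0.00535) and Vps39 (1.51, adjusted p = 0.0358) passed. Ppargc1a, a coactivator of mitochondrial and gluconeogenic genes, stood at 7.10 FPKM at 300 mg/kg, against 1.62 and 2.87 FPKM at 200 mg/kg and 1.99 and 1.57 FPKM after saline (1.41 ± 0.29 from 200 mg/kg, adjusted p = 0.0693). Cyp2b10, the target of the nuclear receptor CAR, stood at 5.68 FPKM at 300 mg/kg and was at or below 2.19 FPKM in the other 4 libraries (2.52 ± 0.46 from 200 mg/kg, adjusted p = 0.0683). Both genes were highest in the 300 mg/kg liver. Zfp64, a zinc finger protein, was the low one, at 0.877 FPKM at 300 mg/kg, against 3.02 and 3.54 FPKM at 200 mg/kg and 3.83 and 4.90 FPKM after saline. Csf1, the macrophage growth factor, stood at 2.17 FPKM at 300 mg/kg, against 7.05 and 6.43 FPKM at 200 mg/kg and 2.40 and 3.71 FPKM after saline. The remaining genes of smallest p were Ier3ip1, Zfp945, Tmem9, Cnmd and L3hypdh, all with a positive difference from 200 mg/kg.

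For the genes of injury, the 300 mg/kg liver did not lie beyond both 200 mg/kg livers in a fixed order. Mt1, Saa1 and Lcn2 lay between the 200 mg/kg livers, Glul was lower than both at 34.8 FPKM, and Stat3 lay between them at 34.8 FPKM. The dose difference was 0.05 ± 1.17 for Mt1, 0.02 ± 0.28 for Stat3 and -1.01 ± 0.53 for Glul. The list medians of the 300 mg/kg liver against saline were 1.05 for acute phase genes and -0.54 for pericentral genes. They were 0.81 for cholesterol synthesis and -1.40 for heat shock genes, where OE saline (2) stood apart.

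The responses at 200 mg/kg were then compared between the genotype labels by testing the difference of the differences. In the same fit, 622 of 10867 genes (5.72%) passed between WT APAP and WT saline, 2% of those tested higher and 3.73% lower. Between Het APAP and Het saline 2345 genes (21.6%) passed, 8.28% higher and 13.3% lower. WT APAP and WT saline livers shared no lane, so that contrast cannot be told apart from lane. Both Het saline livers and Het APAP 1 were perfused and in lane L008, but Het APAP 2 and 3 were not perfused and in lane L005. The Het contrast can therefore only in part be told apart from lane, and the OE minus Het test carries the same limit. Against the Het response, the OE response differed for 2 genes (0.0184% called), and 1948 had an unadjusted p below 0.05. Against the WT response, 0 genes passed (0% called; smallest adjusted p = 0.431), and 646 had an unadjusted p below 0.05. Leaving out 1 library at a time gave 0 to 456 genes against Het, the most without 1 Het APAP liver (Het APAP 1) and 272 without OE APAP 200 (2), and 0 to 4 genes against WT. Both tests use the same 4 OE livers.

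Akr1c14, a hepatic hydroxysteroid dehydrogenase, was the first of the 2. It stood at 113 and 85.3 FPKM in the OE APAP 200 mg/kg livers and 180 FPKM in the 300 mg/kg liver, against 114 and 134 FPKM in the OE saline livers. Het livers had 30.5 to 39.6 FPKM after APAP and 222 and 231 FPKM after saline. The OE response was -0.32 ± 0.20 and the Het response -2.70 ± 0.20, a difference of 2.38 ± 0.28 (95% interval 1.77 to 2.99, limma adjusted p = 0.0184). The OE livers were higher after APAP than the Het livers and lower after saline, and both gaps entered the difference. It passed without 9 of the 17 libraries in turn (2.13 to 2.62, highest adjusted p = 0.214 without Het saline 1).

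Nat8f5, an N-acetyltransferase-family gene with close copies that can share reads, was the other. It stood at 9.53 and 5.94 FPKM in the OE APAP 200 mg/kg livers and 3.44 FPKM in the 300 mg/kg liver, against 5.02 and 17.5 FPKM in the OE saline livers. Het livers had 2.27 to 2.83 FPKM after APAP and 25.6 and 25.7 FPKM after saline. The difference of the responses was 3.03 ± 0.41 (95% interval 2.13 to 3.92, limma adjusted p = 0.0394). The 2 OE saline livers were far apart, and OE saline (1) lay below the APAP liver of its own lane. The difference passed without 8 of the 17 libraries in turn (2.20 to 3.49, highest adjusted p = 0.298 without OE APAP 200 (1)), and not without the perfusion term (2.62, adjusted p = 0.0630).

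Among the genes of injury, no difference of response passed with all libraries. Glul had an OE response of -1.49 ± 0.42, a Het response of -4.73 ± 0.42 and a WT response of -3.95 ± 0.39. The OE minus Het difference was 3.25 ± 0.59 (95% interval 1.96 to 4.54, limma adjusted p = 0.0780). Without OE saline (2) it was 3.83. With failed zeros kept it stayed at 3.25 and passed (limma adjusted p = 0.0402), but there failed estimates had entered the adjustment. After APAP, Glul stood at 70.5 and 56.3 FPKM in the OE 200 mg/kg livers, 15.3 to 22.1 FPKM in Het livers and 19.7 to 40.1 FPKM in WT livers. Mt1 had an OE response of 3.15 ± 0.92 and a Het response of 7.32 ± 0.93, a difference of -4.17 ± 1.31 (-7.08 to -1.26, adjusted p = 0.147). As given before, the OE saline livers were below the WT and Het saline livers in Glul and above them in Mt1. These gaps after saline entered the differences of response as well. Psat1 had an OE response of 1.41 ± 0.23 and a Het response of 3.13 ± 0.23, a difference of -1.72 ± 0.32 (limma adjusted p = 0.0780). Without OE saline (2) this difference was -1.90. With failed zeros kept it stayed at -1.72 and passed (adjusted p = 0.0402), again with failed estimates in the adjustment. Stat3 had close responses, 1.01 ± 0.22 in OE, 0.96 ± 0.22 in Het and 0.86 ± 0.20 in WT livers, and the OE minus Het difference had an interval of -0.63 to 0.72.

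The genes with the smallest p against the WT response were Ica1, Pmm1, Sgf29, Srxn1 and Errfi1. Srxn1, sulfiredoxin, a target of Nrf2, had an OE response of 0.12 ± 0.20 and a WT response of 1.48 ± 0.18, a difference of -1.36 ± 0.27 (limma adjusted p = 0.431). Pmm1, a phosphomannomutase, had an OE response of 0.17 ± 0.21 and a WT response of 1.78 ± 0.20. Errfi1 had an OE response of 1.47 ± 0.28 and a WT response of -0.49 ± 0.26, a difference of 1.96 ± 0.38. The WT livers after APAP had 238 to 299 FPKM of Errfi1, against 241 to 416 FPKM in the OE APAP livers, and the WT and Het saline livers were above the OE saline livers as given before.

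The list medians at 200 mg/kg are set side by side, first for 5 lists. Of all genes, 13.3% passed lower and 8.28% higher in Het livers, and 3.73% lower and 2% higher in WT livers. For fatty acid oxidation the median was -0.32 in OE, -1.87 in Het (34 of 35 passed, all lower) and -1.05 in WT livers (17 lower). For APAP conjugation it was -0.30 in OE, -1.75 in Het (19 lower, 1 higher) and -1.15 in WT livers (12 lower, 1 higher). For bile acids it was -0.46 in OE, -1.67 in Het (17 lower) and -0.97 in WT livers (10 lower). In these 3 lists the OE median was the nearest to 0 and the Het median the farthest from it. The NAD synthesis median was -0.11 in OE, -1.04 in Het (14 lower, 1 higher) and -0.53 in WT livers (2 lower). For acute phase genes it was 0.95 in OE, 2.05 in Het (16 higher) and 1.33 in WT livers (8 higher). The medians for all genes tested were 0.00 in OE, -0.07 in Het and -0.03 in WT livers. Not every list had its OE median nearer to 0 than its Het median. The integrated and ER stress median was 0.24 in OE, 0.09 in Het (10 higher, 2 lower) and 0.78 in WT livers (7 higher). For cytokines, chemokines and feedback genes it was 0.79 in OE, 0.66 in Het (8 higher, 1 lower) and 0.68 in WT livers (3 higher). For metallothioneins and zinc transporters it was 0.28 in OE, 0.04 in Het (3 higher) and 0.20 in WT livers (2 higher). The NAD-consuming and interferon lists had medians within 0.12 of 0 in all 3 genotypes. Cholesterol synthesis differed in sign, with -0.54 in OE, 0.64 in Het and 0.49 in WT livers, and no member passed in Het or WT livers. No member of these lists passed the test of the OE minus Het difference of responses.

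**Figure D5:**
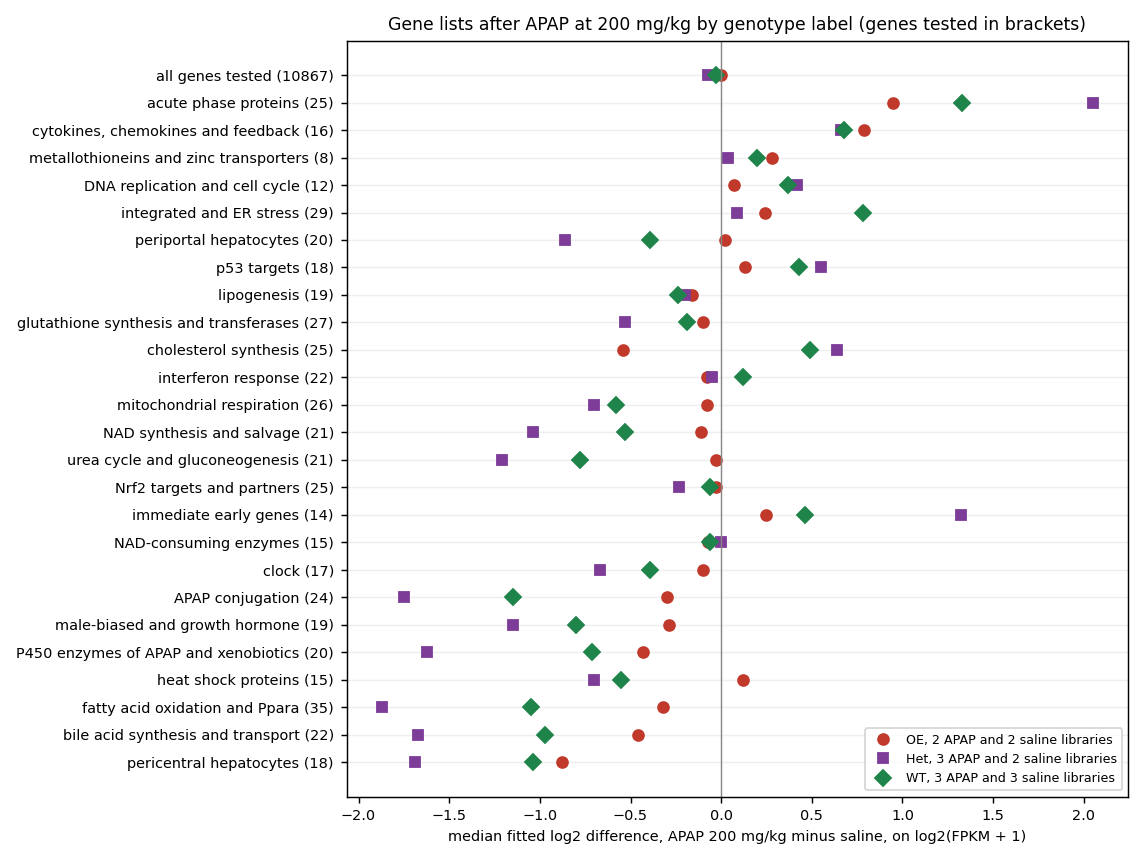
Median fitted log2 difference of each gene list, APAP at 200 mg/kg minus saline, on log2(FPKM + 1), in OE (2 against 2 libraries), Het (3 against 2) and WT livers (3 against 3). Medians of OE livers lay nearer to 0 than those of Het livers for acute phase, pericentral, fatty acid oxidation, bile acid, P450 and conjugation lists.

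Marker sums differed between the genotype labels too. Hepatocyte marker sums were 21400 and 22200 in the OE APAP 200 mg/kg livers, 10400 to 14300 in Het APAP livers and 12600 to 18700 in WT APAP livers, against 27800 and 22300 in OE saline livers and 24200 to 26200 in the other saline livers. Neutrophil marker sums were 5.76 and 73.4 in the OE APAP 200 mg/kg livers, 80.9 to 466 in Het APAP livers and 8.87 to 106 in WT APAP livers, against 9.65 and 1.94 in OE saline livers and 2.31 to 3.49 in the other saline livers. The part of these sums in the differences of response was not tested.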

How the data were processed

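The deposited values, 1 for each gene in each library, were read as FPKM from the tools named and the range of values, since no header names the unit. The authors made them from paired-end, stranded total RNA reads, per the labels' protocols. Per the submitters' processing notes the build was GRCm38 p5 and the tools were TopHat2 2.0.9, Cuffdiff, Cufflinks 2.2.1 and bcl2fastq 2.17.1.14; annotation and Cuffdiff version are not given in the sources used here. Sequencing depth is unknown. In the OE libraries the summed FPKM ran from 615953 to 916006, 10640 to 10855 genes reached 1 FPKM, and the 10 most abundant genes held 18.2% to 28.8%.

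Some abundant genes are listed at 0 in every library of 1 genotype and drug but are high elsewhere; these zeros were read as failed estimates. A gene at 0 in all libraries of such a combination and at 10 FPKM or more elsewhere, or within 100 kb of one and at 0 in the same combinations, was left out (89 of the 10956). Fga, Fgb, Hpx and Trf have values in OE livers but were left out for this reason. Alb is listed at 0 in every library.

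limma 3.58.1 (statmod 1.5.0, R 4.3.3) was fitted to log2(FPKM + 1) over all 17 libraries, with a mean for each of 8 label groups and a perfusion term (8 residual degrees of freedom, trended and robust prior), with Benjamini-Hochberg adjustment at 0.05. The comparison at both doses weights the 3 APAP libraries equally. Replicate numbers follow accession order. Nothing in the labels says whether the mice came from separate litters. The p-values therefore measure only how these livers spread, and that spread may include technical differences. No 2 libraries were duplicates (smallest median absolute log2 difference 0.136). The script was checked on simulated data with independent noise and no perfusion or lane differences. That check does not show how well changes are found in these libraries.

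The genes named are Nampt, 16 sentinels, the 5 members with the smallest p in each list, and the 12 largest differences in each direction without overlap at 5 FPKM or more, of which 1 is not reported here. The members and lists were chosen with earlier results of these data known. Alternatives changed the pseudocount, filter, perfusion term, lane, libraries, scaling and weights.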

Additional observations from a re-analysis of the deposited data

Results flagged for a closer look

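Akr1c14 and Nat8f5 are given here because their response to APAP at 200 mg/kg differed between OE and Het livers in the test of the difference itself. For Akr1c14 the OE minus Het difference of the log2 responses was 2.38 ± 0.28 (SE), and for Nat8f5 it was 3.03 ± 0.41 (limma adjusted p = 0.0184 and 0.0394). Akr1c14 was at 113 and 85.3 FPKM in the OE APAP 200 mg/kg livers and 30.5 to 39.6 FPKM in the Het APAP livers, against 114 and 134 FPKM in the OE saline livers and 222 and 231 FPKM in the Het saline livers. Nat8f5 was at 9.53 and 5.94 FPKM in the OE APAP 200 mg/kg livers and 2.27 to 2.83 FPKM in the Het APAP livers, against 5.02 and 17.5 FPKM in the OE saline livers and 25.6 and 25.7 FPKM in the Het saline livers. Leaving out 1 library in turn, Akr1c14 passed in 9 of 17 fits and Nat8f5 in 8 of 17, with the sign the same in all of them. Without OE saline (1) the adjusted p was 0.0696 for Akr1c14 (2.27) and 0.0433 for Nat8f5 (2.20). Without OE APAP 200 (1) it was 0.178 for Akr1c14 (2.13) and 0.298 for Nat8f5 (3.03). Their causes were not tested.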

How the results depend on the processing

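Counts of genes past the threshold are given in the order both doses against saline, 200 mg/kg against saline, 300 mg/kg against saline, 300 against 200 mg/kg, OE against WT response and OE against Het response; as reported they were 0, 0, 0, 0, 0 and 2. Without a filter on low values they were 50, 1, 262, 330, 1 and 2, and with failed zeros kept 15, 13, 20, 4, 8 and 58. With a pseudocount of 0.1, 7 and 40 genes passed in the 300 mg/kg comparisons. With lane in place of perfusion the counts were 12, 0, 787 and 885, and 5 against Het; OE against WT could not be fitted. Array weights gave 169 for 300 against 200 mg/kg. Against Het, 5 passed at a mean of 5 FPKM, 4 without the perfusion term and 101 with the doses pooled. Leaving out 1 library at a time gave 0 to 6, 0 to 12, 0 to 208, 0 to 52, 0 to 4 and 0 to 456. Without OE APAP 200 (1) and OE saline (2) together, chosen after seeing the data, the counts were 4, 5, 2, 2, 3 and 6. The causes were not tested. Of 197 named genes, 193 kept their sign in the comparison at both doses under all 12 alternatives beside leaving out libraries, and 136 also without each library in turn. No paired analysis was possible because the labels give no replicate numbers that pair the libraries. The lone 300 mg/kg library, the unknown depth and 2 saline livers that differ from each other limit these comparisons.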
